A study of Schizosaccharomyces pombe with 12 samples.

Results

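Gene expression in *set3Δ* cells was compared with that in wild-type cells grown without the actin inhibitor latrunculin A (LatA). The comparison used the 3 *set3Δ* and the 3 wild-type arrays labelled DMSO, 6 of the 12 Affymetrix Yeast Genome 2.0 arrays of the series, and all 4880 *Schizosaccharomyces pombe* probe sets in the deposited values. Wild-type cells carried the auxotrophic alleles ura4-D18, leu1-32 and ade6-216. The *set3Δ* cells carried the same alleles and set3::KanMX, a drug resistance marker at the *set3* locus. Cultures of both strains in mid-log growth in rich YES medium received DMSO, the solvent of LatA, for 3 h at 30 °C. The other 6 arrays held the same 2 strains after 3 h with LatA, and they serve here only as a second set of cultures. The labels give the LatA dose as 0.5 mM, whereas the methods of the study give 0.5 µM. The labels do not state a mating type. The strain list of the study gives h- for a wild type of matching genotype and h+ for *set3Δ*, without saying which strains were put on the arrays. The labels call the 3 arrays of a group biological replicates, and the p-values below measure the spread between these arrays.

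Set3p has a PHD finger and a SET domain and works in a nuclear complex with Snt1p, Hif2p and the histone deacetylase Hos2p. The budding yeast complex of the same name removes acetyl groups from histones over transcribed genes. Fission yeast cells of mating type M (h-) secrete M-factor and cells of type P (h+) secrete P-factor, and the genes at the *mat1* locus set which set of mating genes a cell can use. Many stresses raise a shared set of transcripts, the core environmental stress response (CESR-UP), largely through the MAP kinase Sty1p, and lower another set of growth genes (CESR-DN).

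The values are log2 intensities from which the authors' processing had subtracted, for each probe set, the median of the 12 arrays. A value of 0 is therefore the middle of the series for that transcript, and levels of different transcripts cannot be compared. Replicate arrays differed little for most probe sets, with a median SD of 0.106 in wild type and 0.114 in *set3Δ*, but some arrays stood apart. From 132 to 389 probe sets differed by more than 1.5-fold between wild-type replicates, the most between replicates 1 and 3, and from 110 to 276 between *set3Δ* replicates, the fewest between replicates 1 and 3. Replicate 2 of *set3Δ* lay within the range of the 3 wild-type arrays for 46.4% of all probe sets, against 28.3% for replicate 1 and 25.3% for replicate 3.

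Few transcripts passed the test between the strains, and each one that did was lower in *set3Δ*. In limma, 6 of 4880 probe sets (0.123%) had an adjusted p below 0.05 and a fold change above 1.5. They were *set3* itself, *mat3-Mc* and *mfm2* of M cells, *gdt1* near the end of chromosome I, SPBC23G7.10c beside the *mat1* locus and *urm1*. A far larger number leaned to one side without passing. All 3 *set3Δ* arrays lay above or all below the 3 wild-type arrays for 1439 probe sets (29.5%), 546 higher (11.2%) and 893 lower (18.3%), and 1111 (22.8%) had an unadjusted p below 0.05. A fold change above 1.5 was seen for 235 probe sets (4.82%), and for 112 of them (2.3% of all) the arrays of the strains did not overlap, 48 higher and 64 lower in *set3Δ*. The count of 6 depended on how the spread was estimated. It was 93, 39 of them higher in *set3Δ*, when all 12 arrays shared 1 fit, and 3 when each probe set kept its own variance or wild-type replicate 2 was left out.

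**Figure D1:**
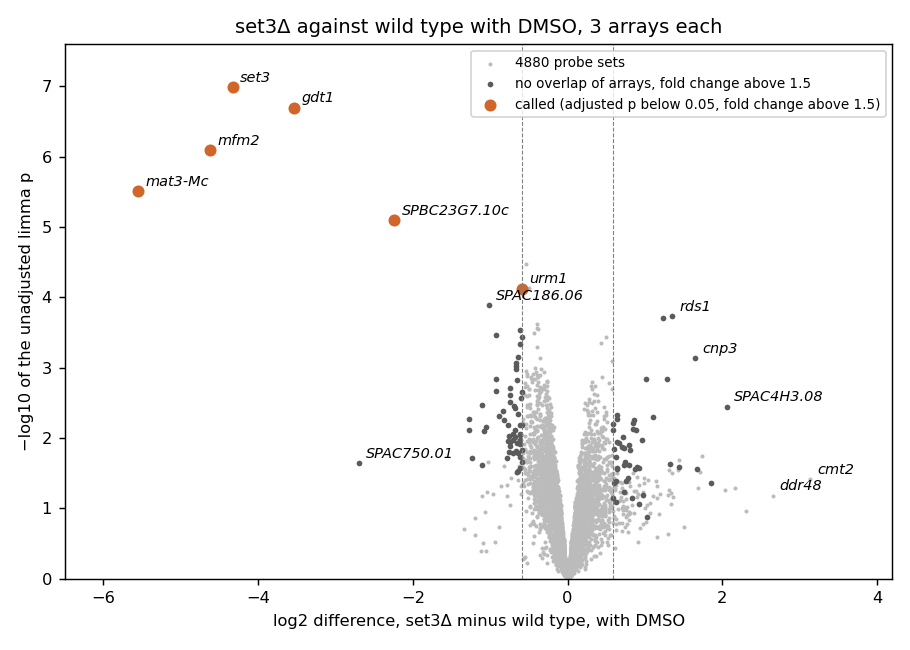
Each point is 1 of 4880 probe sets, with the log2 difference between *set3Δ* and wild type with DMSO on the x axis and the −log10 of the unadjusted limma p on the y axis; dashed lines mark a fold change of 1.5. The 6 called probe sets (large points) all lie on the lower side, from -5.55 for *mat3-Mc* to -0.59 for *urm1*, while the largest positive differences, such as 3.14 for *cmt2* and 2.65 for *ddr48*, lie low on the plot.

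The *set3* transcript stood at 2.11, 2.04 and 1.97 in the 3 wild-type arrays and at -2.59, -2.15 and -2.12 in the *set3Δ* arrays. No array lay near the other strain, as the labels require. The log2 difference was -4.33 (standard error 0.14, adjusted p = 0.000496 from limma), or 20.1-fold. With LatA it was -4.49. The genes of the other members of the complex lay close to their wild-type values. The largest difference was that of *snt1*, which encodes the SANT-domain subunit, with -0.07, -0.20 and -0.36 in wild type and 0.08, 0.06 and 0.10 in *set3Δ*. Its arrays did not overlap, but the difference of 0.29 (standard error 0.08) did not pass in limma (adjusted p = 0.166). It was 0.39 with LatA, with an adjusted p of 0.0148 from limma and a fold change below 1.5. The WD-repeat gene *hif2* differed by -0.08 (standard error 0.06, 95% interval from -0.22 to 0.06) and the deacetylase gene *hos2* by -0.10 (standard error 0.08, 95% interval from -0.31 to 0.11).

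None of the 10 genes nearest *set3* on chromosome I passed. Their differences ran from -0.32 for SPAC22E12.18 to 0.60 for *krp1*, which encodes a kexin-like protease, and the smallest adjusted p in limma was 0.148. The arrays did not overlap for 40% of the 10, 3 higher and 1 lower in *set3Δ*, against 29.5% of all probe sets. In limma 40% had an unadjusted p below 0.05, against 22.8% of all. The adjacent genes, *etp1* and *rlp24*, differed by 0.27 and -0.18. For *etp1* the arrays did not overlap with DMSO or with LatA, where the difference was 0.26. Among 13 genes of histone deacetylases and their partners outside the complex, 6 had a positive and 7 a negative difference, and none passed. The largest were those of *sds3* (-0.36) and *sir2*, the gene of a silencing deacetylase (-0.35), and *cph1* had 0.25. The arrays did not overlap for 7 of the 13 (53.8%, against 29.5% of all probe sets). The marker genes carried as mutant alleles by both strains differed by -0.18 (*ura4*), -0.10 (*leu1*) and -0.32 (*ade6*), all below the threshold, though the *set3Δ* arrays lay lower than the wild-type arrays for each of the 3, as they did for 18.3% of all probe sets.

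The 2 transcripts with the largest differences belong to M cells. The probe set named *mat3-Mc*, the gene of the M-specific transcription factor Mc in the silent *mat3* cassette, can match several genes. It stood at 3.49, 2.93 and 2.38 in wild type and at -2.45, -2.38 and -3.03 in *set3Δ*. Every wild-type array was high and every *set3Δ* array low, and the difference was -5.55 (standard error 0.32, adjusted p = 0.00376 from limma), which is 46.9-fold. The gene of an M-factor precursor, *mfm2*, stood at 2.86, 2.56 and 2.05 in wild type against -2.07, -2.05 and -2.27 in *set3Δ*. It fell by 4.62 on the log2 scale (standard error 0.21, adjusted p = 0.00131 from limma), or 24.5-fold, again with no array of one strain near the other. The differences with LatA were -6.53 and -5.58, and the change in the strain difference between LatA and DMSO did not pass for either (adjusted p = 0.18 for *mat3-Mc* and 0.145 for *mfm2* from limma, in a test that 3 probe sets passed, 0.0615% of all).

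**Figure D2:**
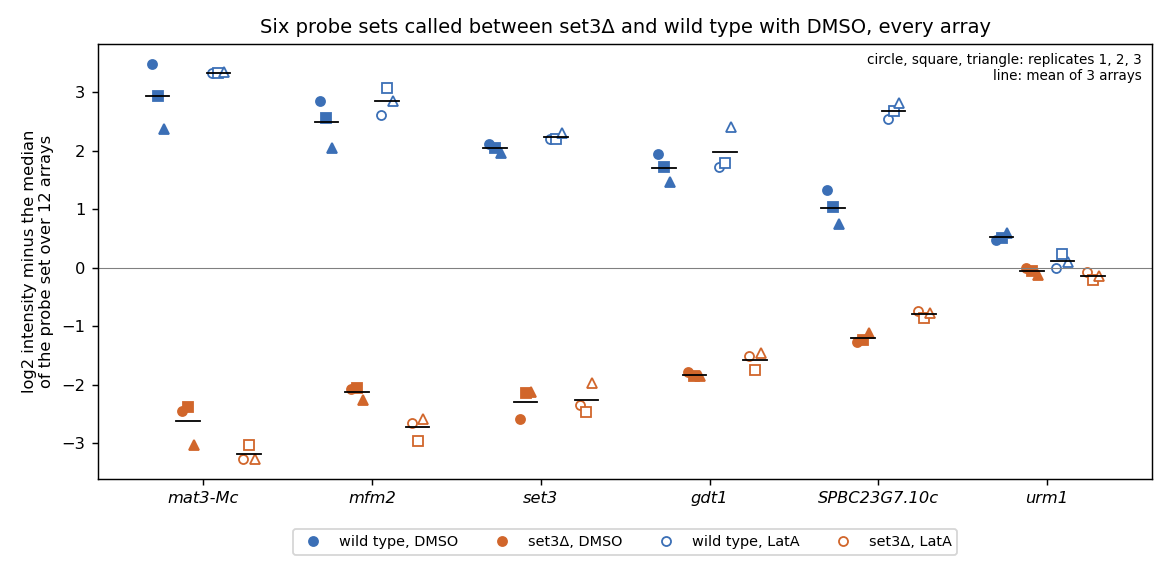
The y axis gives the log2 intensity of the 6 called probe sets in each of the 12 arrays, relative to the median of the probe set; filled symbols are DMSO, open symbols LatA, blue wild type, orange *set3Δ*, and lines are means of 3 arrays. For the first 5 genes all wild-type arrays lie above 0 and all *set3Δ* arrays below it in both treatments, while *urm1* is set apart with DMSO (0.48 to 0.60 against -0.12 to -0.0033) and less so with LatA.

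Other M-cell genes had smaller differences. Of 11 probe sets for 9 M-cell genes, 2 passed as lower (0.123% of all probe sets did) and none as higher. The differences were negative for 7 and positive for 4, with a median of -0.61, against -0.01 over all probe sets. The arrays did not overlap for 54.5%, 5 lower and 1 higher in *set3Δ*, against 29.5% of all. The second precursor gene, *mfm1*, stood at 1.04, 0.61 and 0.50 in wild type and at -0.14, -0.09 and -0.41 in *set3Δ* on a probe set that can match several genes. All 3 *set3Δ* arrays were lower, but the difference of -0.93 (standard error 0.16) did not pass (adjusted p = 0.136 from limma), and the other *mfm1* probe set gave -0.61. The third precursor gene, *mfm3*, lay on the other side, with 0.28 and 0.15 for its 2 probe sets. The M-factor methyltransferase gene *mam4* stood at 0.83, 0.68 and 0.60 in wild type and at -0.01, 0.22 and -0.10 in *set3Δ* (-0.66, standard error 0.11, adjusted p = 0.136 from limma). For the M-factor transporter gene *mam1* the wild-type arrays were unlike each other (1.19, 0.80 and -0.02), and replicate 3 fell within the *set3Δ* range of -0.29 to 0.02. The P-factor receptor gene *mam2* differed by -0.44 and the gene of the P-factor-degrading carboxypeptidase, *sxa2*, by 0.01. With LatA, *mam1* (-0.76) and *mam2* (-1.16) passed.

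No P-cell gene passed. Of the 4 measured, 0 had an unadjusted p below 0.05 in limma (22.8% of all probe sets did). The arrays of the strains overlapped for each, whereas 29.5% of all probe sets did not overlap. With 4 genes these counts cannot be told apart from those shares. The P-factor gene *map2* differed by -0.15 (95% interval from -0.51 to 0.21), the M-factor receptor gene *map3* by 0.08 (from -0.08 to 0.25) and the regulator *map1* by 0.48 (from -0.43 to 1.39). The P-specific genes of *mat1* were matched to no probe set here. Because the strain list gives the strains opposite mating types, the deletion of *set3* and the mating type cannot be told apart for the M-cell genes. The same limit holds for every other gene that differed, apart from *set3* itself. It covers the genes beside *mat1* and near the chromosome ends described below. Any further difference in strain background is likewise not separated from the deletion. The LatA arrays held the same strains and cannot separate them either.

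SPBC23G7.10c, which encodes a predicted flavin oxidoreductase, lies next to the *mat1* locus on chromosome II. Its values were 1.33, 1.04 and 0.74 in wild type and -1.27, -1.24 and -1.11 in *set3Δ*, with no overlap. The transcript fell by 2.24 (standard error 0.15, adjusted p = 0.00789 from limma), or 4.73-fold, and the call was lost when any one of the *set3Δ* arrays or wild-type replicate 2 was left out (adjusted p from 0.0537 to 0.0982). The difference with LatA was larger, at -3.48, and the test of this change gave an adjusted p of 0.0523 in limma. Its neighbour on the other side from *mat1*, the DNA glycosylase gene *mag2*, differed by -0.74 (standard error 0.15, adjusted p = 0.141 from limma) and by -0.82 with LatA, where it passed. The *mag2* arrays did not overlap, with 0.66, 0.09 and 0.21 in wild type and -0.46, -0.42 and -0.37 in *set3Δ*. Over the 7 measured genes within 5 places of SPBC23G7.10c, none passed and the range was -0.74 to 0.45. The genes near the silent *mat3* cassette ranged from -0.37 to -0.02 (5 measured), and none passed.

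The transcript of *gdt1* (SPAC186.05c) was low in every *set3Δ* array. It stood at 1.95, 1.72 and 1.46 in wild type and at -1.78, -1.85 and -1.86 in *set3Δ*. The difference was -3.53 (standard error 0.13, adjusted p = 0.000496 from limma), or 11.6-fold, and it was -3.55 with LatA. In gene order *gdt1* is the 13th protein-coding gene from the end of chromosome I. The genes on both sides of it also lay lower in every *set3Δ* array, although neither passed. SPAC186.06, of no known function here, stood at 0.78, 0.53 and 0.37 in wild type and at -0.50, -0.37 and -0.51 in *set3Δ* (-1.02, standard error 0.11, adjusted p = 0.0697 from limma). SPAC186.04c, a putative pseudogene, stood at 0.54, 0.48 and 0.24 against -1.27, -0.24 and -0.47 (-1.08, standard error 0.27, adjusted p = 0.156). The pseudogene SPAC750.01, 5 genes from *gdt1*, varied more among wild-type arrays than these genes, with 3.82, 1.65 and 0.31 against -1.28, -0.73 and -0.31. Its difference of -2.70 had a standard error of 0.88 and did not pass (adjusted p = 0.183 from limma). All 3 of these genes passed with LatA, with differences of -2.76, -1.60 and -5.07 in the order given. The lower values did not extend evenly on the other side. SPAC186.03 differed by 0.13, SPAC186.02c by 0.40 and the flocculin gene *pfl9* by 0.08.

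**Figure D3:**
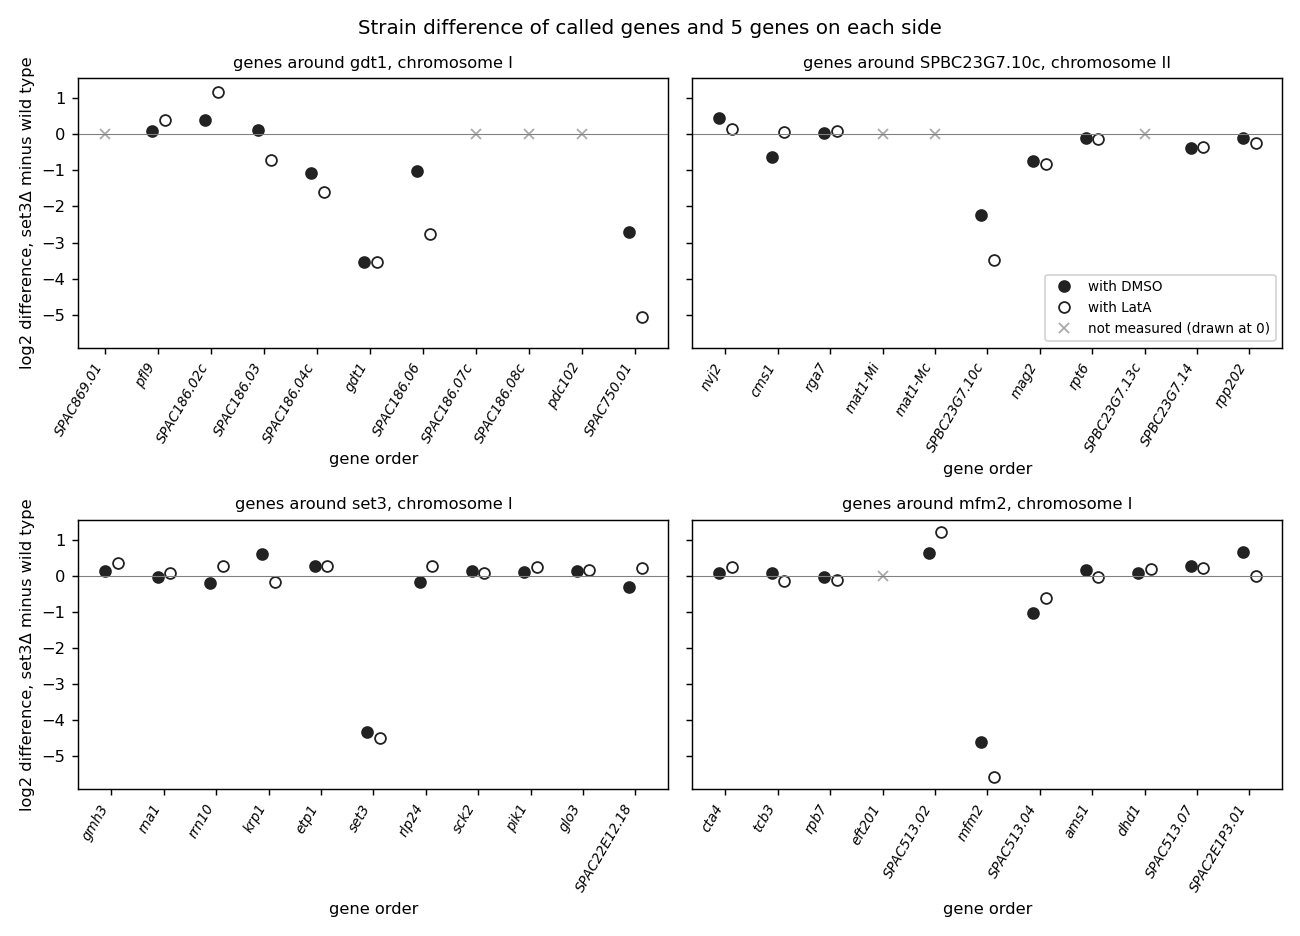
Log2 differences between *set3Δ* and wild type (y axis) for 4 called genes and the 5 genes on each side in chromosome order (x axis), with DMSO (filled) and LatA (open); crosses at 0 are genes not measured. Around *gdt1*, SPAC186.04c (-1.08), SPAC186.06 (-1.02) and SPAC750.01 (-2.70) lie lower too. Around *set3* the differences with DMSO run from -0.32 to 0.60. Around *mfm2* they run from -1.04 for the adjacent gene SPAC513.04, whose arrays overlapped, to 0.65.

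Genes near chromosome ends as a group had differences centred close to 0. Of the 40 genes nearest each end of chromosomes I and II, 77 were measured by 79 probe sets. They had a median difference of -0.05, with 35 positive and 44 negative, and *gdt1* was the 1 that passed. The *set3Δ* arrays lay lower than all wild-type arrays for 20 and higher for 6, so that 32.9% did not overlap, near the 29.5% of all probe sets. The differences were larger in size than elsewhere, with a median absolute value of 0.30 against 0.14. A fold change above 1.5 was seen for 20 of the 79, against 4.82% of all probe sets. In limma 36.7% had an unadjusted p below 0.05, 23 lower and 6 higher, against 22.8% of all. With LatA the median was -0.34, and 27 passed as lower and 2 as higher (2.15% and 1% of all probe sets). The telomere-linked helicase gene *tlh2* differed by -1.23 and -0.77 on its 2 probe sets. The largest positive difference of the group, and of all probe sets, was that of *cmt2*, at 3.14. It rested on the wild-type arrays, which stood at 0.03, -3.57 and -4.58, against 0.74, -0.03 and 0.60 in *set3Δ* (standard error 1.18, adjusted p = 0.204 from limma), and with LatA the difference was -1.11.

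The smallest called difference was that of *urm1*, which encodes a ubiquitin-like protein that carries sulfur for tRNA thiolation. The wild-type arrays stood at 0.48, 0.51 and 0.60 and the *set3Δ* arrays at -0.0033, -0.05 and -0.12. The groups did not overlap and the arrays within each lay close together, so that a difference of -0.59 passed (standard error 0.06, adjusted p = 0.0462 from limma). Leaving out any one of the 6 arrays ended the call (adjusted p from 0.0903 to 0.365), and with LatA the difference was -0.25 and did not pass. The other 4 measured genes of the tRNA thiolation pathway did not pass, with *ctu1*, of the tRNA thiolation enzyme, at -0.40 and *tum1*, a sulfurtransferase, at 0.29. The tRNA nucleotidyltransferase gene *cca1* and *msi2* had adjusted p-values below the threshold (0.0462 and 0.0277 from limma) with differences of -0.50 and -0.54, short of the 1.5-fold limit.

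Several genes had positive differences above 1.5-fold and arrays that did not overlap. The stress gene *rds1*, a member of the Sty1p list used here, came nearest to a call. It stood at -0.46, -0.63 and -0.56 in wild type and at 1.07, 0.46 and 0.87 in *set3Δ*. All *set3Δ* arrays were higher, and the difference was 1.35 (standard error 0.16, adjusted p = 0.0874 from limma), or 0.0176 without *set3Δ* replicate 2. With LatA *rds1* was higher by 1.86 and passed. The predicted dehydrogenase gene SPAC4H3.08 stood at -1.79, -1.99 and -2.17 against 0.69, -0.94 and 0.48. Its difference was 2.06 with a standard error of 0.44 (adjusted p = 0.142 from limma). It reached an adjusted p of 0.0118 without *set3Δ* replicate 2, and was 3.38 with LatA. The gene of the centromere protein Cnp3p, *cnp3*, stood at -0.25, -0.49 and -0.91 in wild type and at 1.38, 1.28 and 0.63 in *set3Δ* (1.65, standard error 0.26, adjusted p = 0.136 from limma). Replicate 2 of *set3Δ* lay close to replicate 1 for this gene, and it passed with LatA at 1.17.

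In the next 2 genes the wild-type arrays were less alike than the *set3Δ* arrays. SPCC737.04 stood at -0.66, -1.23 and -3.51 in wild type and at -0.07, 0.13 and 0.11 in *set3Δ* (1.86, standard error 0.72, adjusted p = 0.212 from limma). The predicted amino acid permease gene SPCPB1C11.02 stood at -0.65, -1.54 and -2.87 against 0.34, -0.47 and 0.09 (1.67, standard error 0.57, adjusted p = 0.191). In both genes wild-type replicate 3 was lowest, and neither stayed positive with LatA (-0.58 and -0.15). The predicted succinate semialdehyde dehydrogenase gene *ssd2* differed by 1.44 and SPAC16A10.01 by 1.10. On the lower side, the multidrug transporter gene SPCC1529.01 (-1.28) and the predicted methyltransferase gene *efm6* (-1.27) had arrays that did not overlap and adjusted p-values of 0.155 and 0.149 in limma.

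A few iron uptake genes had some of the larger positive differences with DMSO. The ferric reductase gene *frp1* stood at 0.34, -0.03 and -0.22 in wild type and at 1.72, 0.99 and 1.26 in *set3Δ*. Every *set3Δ* array was higher, but the difference of 1.29 did not pass (standard error 0.23, adjusted p = 0.136 from limma). The iron permease gene *fip1* stood at -0.05, 0.10 and 0.44 against 1.22, 1.11 and 0.52 (0.79), also without overlap. The oxidase gene *fio1* (1.10) and the siderophore transporter gene *str1* (1.16) overlapped, because wild-type replicate 3 lay above *set3Δ* replicate 3 in each. Of the 12 genes measured 8 had a positive difference, with a median of 0.26, and none passed. The arrays did not overlap for 2 of the 12 (16.7%), a smaller share than the 29.5% of all probe sets. In limma 25% had an unadjusted p below 0.05, against 22.8% of all. Replicates 1, 2 and 3 of *set3Δ* lay above all wild-type arrays for 8 (66.7%), 4 (33.3%) and 4 (33.3%). Over all probe sets these shares were 38.6%, 21% and 28.6%. The iron repressor gene *fep1* was at -0.09. With LatA *frp1* differed by -0.12 and *fip1* by -0.22, while *str1* was higher by 0.66 and passed. The change in the *frp1* difference between the treatments did not pass (adjusted p = 0.125 from limma).

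Most CESR-UP genes lay higher in 2 of the 3 *set3Δ* arrays and not in the other. Of 136 CESR-UP genes, replicate 1 of *set3Δ* was above all 3 wild-type arrays for 117 (86%) and replicate 3 for 109 (80.1%), but replicate 2 for 11 (8.09%). Over all probe sets these shares were 38.6%, 28.6% and 21%. Of 104 CESR-DN genes, replicates 1 and 3 were below all wild-type arrays for 85 (81.7%) and 89 (85.6%), and replicate 2 for 27 (26%), against 33.1%, 46.1% and 32.7% of all probe sets. The pattern was weaker in the study's wider list of the cellular response to stress, where replicates 1, 3 and 2 lay above all wild-type arrays for 372 (66.5%), 274 (49%) and 96 (17.2%) of 559 genes. As a result the arrays of the strains did not overlap for 14 CESR-UP probe sets (10.3%), a smaller share than the 29.5% of all probe sets, although the median difference of the list was 0.45. That median ranged from 0.27 without *set3Δ* replicate 1 to 0.64 without replicate 2, and the CESR-DN median of -0.32 from -0.42 to -0.22 when one array was left out. No CESR-UP gene passed as higher, and the 1 that passed as lower was SPBC23G7.10c. The only CESR-DN gene that passed was *mfm2*, as lower. The serine-rich stress protein gene *ddr48* shows the pattern at its largest, with -1.21, -2.63 and -1.99 in wild type and 2.52, -1.93 and 1.54 in *set3Δ*. Replicate 2 lay among the wild-type arrays, and the difference of 2.65 had a standard error of 1.17 (adjusted p = 0.235 from limma). The stress transcript *lsd90* stood at -1.22, -2.18 and -2.12 in wild type and at 1.68, -1.68 and 0.98 in *set3Δ*, the same order of arrays.

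**Figure D4:**
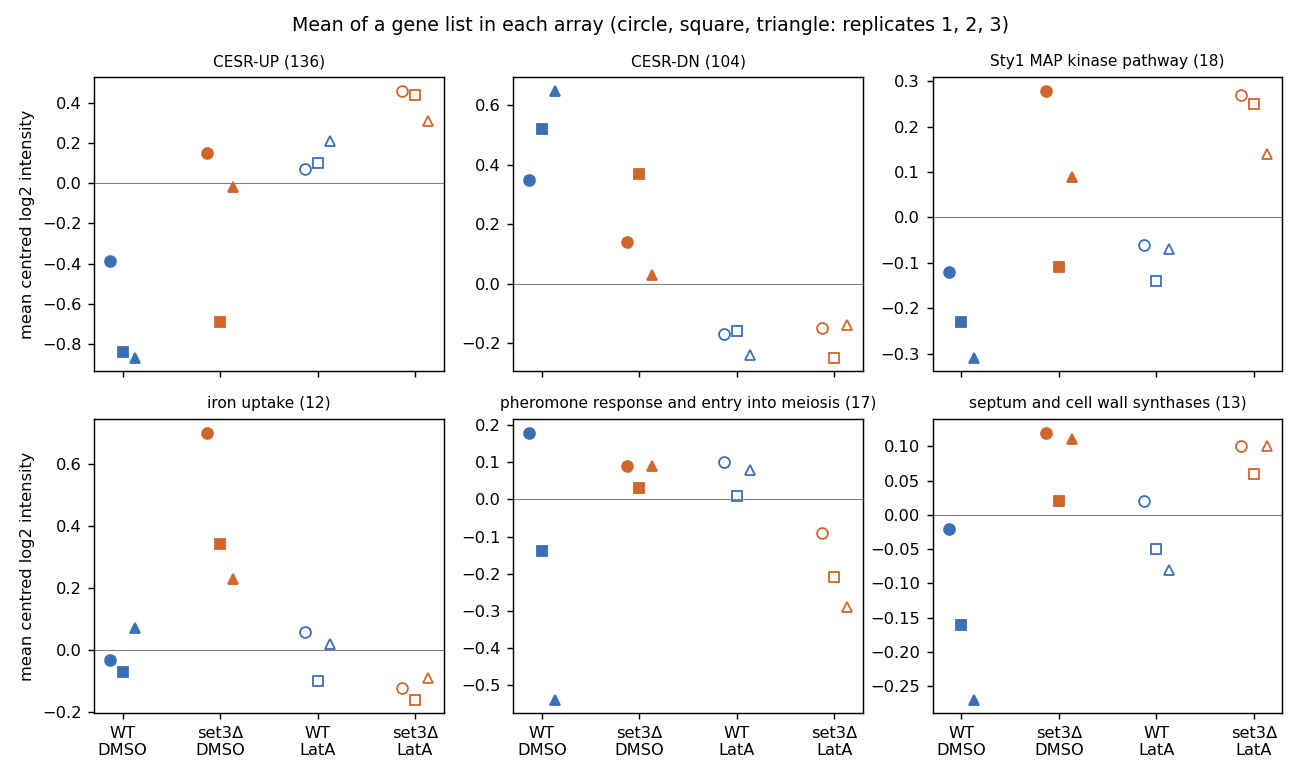
Mean centred log2 intensity of 6 gene lists (y axis, number of probe sets in brackets) in each array, by strain and treatment (x axis); circle, square and triangle are replicates 1, 2 and 3. For CESR-UP genes *set3Δ* DMSO replicate 2 (-0.69) lies among the wild-type DMSO arrays (-0.87 to -0.39) and replicates 1 and 3 (0.15 and -0.02) above them, whereas for septum and cell wall synthases all 3 *set3Δ* DMSO arrays (0.02 to 0.12) lie above the wild-type ones (-0.27 to -0.02).

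The narrower stress lists differed in where replicate 2 of *set3Δ* lay. In the Sty1p MAP kinase pathway 16 of 18 genes had a positive difference (median 0.26), none passed, and replicates 1, 2 and 3 of *set3Δ* lay above all wild-type arrays for 16 (88.9%), 9 (50%) and 13 (72.2%) of them, each above its share of all probe sets. The arrays did not overlap for 8 of the 18 (44.4%, 7 higher and 1 lower), a larger share than the 29.5% of all probe sets and the 10.3% of CESR-UP. For oxidative stress genes replicate 2 lay above all wild-type arrays for 2 of 18 (11.1%), and for heat-shock genes for 5 of 15 (33.3%). The phosphatase gene *pyp1*, an inhibitor of Sty1p, differed by 0.59 (adjusted p = 0.195 from limma) and the transcription factor gene *pcr1* by 0.54. Of 15 heat-shock genes 14 were positive, with a median of 0.09, and none passed. The largest was the small heat-shock protein gene *hsp16* at 0.98, followed by the chaperone genes *ssa1* (0.61) and *hsp104* (0.52), for which replicate 2 of *set3Δ* was the lowest of the 6 arrays, at -1.37 and -1.30. Among 18 oxidative stress genes, 12 positive, the metallothionein gene *zym1* stood at -1.64, -3.19 and -2.74 in wild type and at -0.43, -1.91 and -0.11 in *set3Δ* (1.71, standard error 0.60, adjusted p = 0.194 from limma). The catalase gene *ctt1* differed by 0.74 and the glutathione transferase gene *gst3* by 0.75. In trehalose and glycerol metabolism 7 of 9 genes were positive (median 0.34), with the trehalase gene *ntp1* at 0.72 and the trehalose phosphate synthase gene *tps1* at 0.57, and none passed.

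Genes of cytokinesis had mostly small positive differences, none of which passed. Of 19 actin and actomyosin ring genes 18 had a positive difference, with a median of 0.13, and none passed in limma. An unadjusted p below 0.05 was seen for 4 (21.1%, near the 22.8% of all probe sets). The arrays did not overlap for 5 (26.3%, near the 29.5% of all probe sets). The type II myosin genes had the largest. *myp2* stood at 0.19, -0.76 and -0.82 in wild type and at 0.35, -0.39 and 0.18 in *set3Δ*, so the groups overlapped (0.51, standard error 0.33). *myo2* stood at -0.27, -0.56 and -0.63 against 0.08, -0.29 and -0.13 (0.37, standard error 0.13, adjusted p = 0.198 from limma), and replicate 2 of *set3Δ* again lay among the wild-type arrays. The F-BAR protein gene *imp2* differed by 0.27. In the septation initiation network, the GTPase cascade that triggers ring constriction, 10 of 16 genes were positive with a median of 0.04. The kinase partner gene *mob1* (0.35), the GTPase gene *spg1* (0.28) and the gene of its inhibitor *cdc16* (0.27) had the largest differences, and none passed.

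In the septum and cell wall genes replicate 2 of *set3Δ* lay with the other 2 replicates above wild type. All 13 had a positive difference, from 0.07 to 0.66 with a median of 0.14, and replicates 1, 2 and 3 lay above all wild-type arrays for 11, 11 and 12 of them. The arrays did not overlap for 8 (61.5%, against 29.5% of all probe sets), and 7 (53.8%, against 22.8%) had an unadjusted p below 0.05, but none passed in limma. The glucan synthase gene *bgs1*, whose product builds the primary septum, stood at -0.0093, -0.26 and -0.52 in wild type and at 0.04, 0.12 and 0.17 in *set3Δ* (0.37, standard error 0.13, adjusted p = 0.196 from limma). The protein kinase C gene *pck1* stood at -0.20, -0.36 and -0.57 against 0.10, -0.03 and 0.0089 (0.40, standard error 0.10, adjusted p = 0.157), and its paralogue *pck2* at -0.20, -0.18 and -0.27 against 0.15, 0.04 and 0.08 (0.30, standard error 0.06, adjusted p = 0.136). In these 3 genes every *set3Δ* array was above every wild-type array. The largest difference, 0.66 for *chs2*, came with overlapping arrays and a standard error of 0.41. All of these fold changes but that of *chs2* (1.58) were below 1.5.

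**Figure D5:**
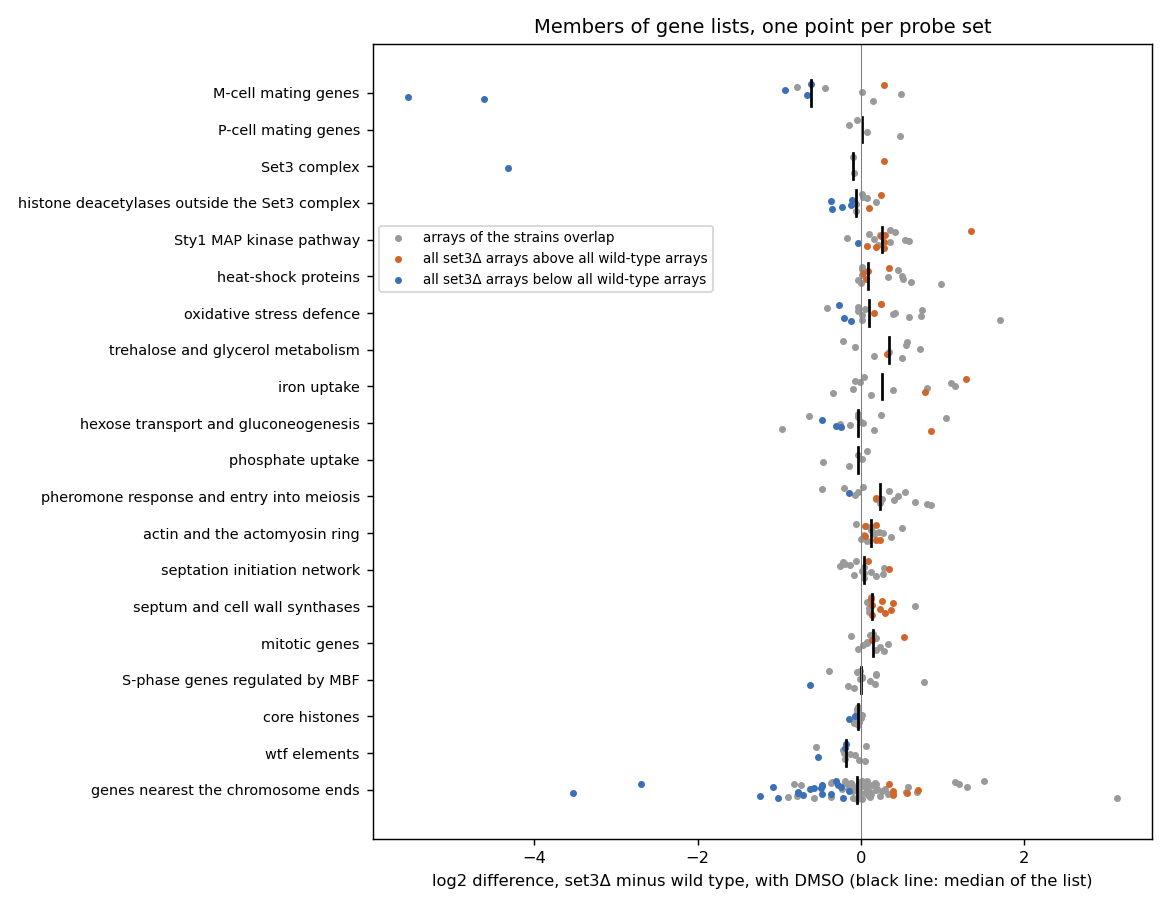
Log2 difference between *set3Δ* and wild type with DMSO (x axis) for each probe set of 19 gene lists and of the genes nearest the chromosome ends (rows); black bars are list medians, and colour marks probe sets whose arrays do not overlap. Outside the M-cell genes, *set3* and the chromosome ends, list members lie between -0.97 and 1.71; all 13 septum and cell wall genes lie above 0 (median 0.14).

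Over the whole cytokinesis list of the study, 332 genes were measured. The arrays did not overlap for 84 (25.3%, below the 29.5% of all probe sets), 54 higher and 30 lower, and *mat3-Mc* was the 1 called. The next largest differences were *skb15*, the gene of an inhibitor of the kinase Shk1p, at -0.74 and the transcription factor gene *mbx1* at 0.68. Of 14 mitotic genes 12 were positive (median 0.15). The securin gene *cut2* stood at -0.49, -0.60 and -0.70 in wild type and at 0.05, -0.23 and -0.02 in *set3Δ*, with every *set3Δ* array higher, but its difference of 0.53 did not pass (standard error 0.10, adjusted p = 0.136 from limma). The kinase gene *wee1* differed by 0.29 and the kinesin gene *klp9* by 0.33.

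Genes of mating and entry into meiosis other than the M-cell and P-cell genes had mostly positive differences, and in the largest of them wild-type replicates 2 and 3 were the low arrays. Of 17 genes 12 were positive (median 0.24) and none passed. In limma 0 had an unadjusted p below 0.05, against 22.8% of all probe sets. The arrays did not overlap for 11.8%, against 29.5% of all. The median ranged from 0.08 without wild-type replicate 3 to 0.39 without wild-type replicate 1. The gene of the transcription factor Ste11p, which switches on mating, stood at 0.0034, -0.45 and -1.76 in wild type and at 0.06, 0.00028 and 0.18 in *set3Δ* (*ste11*, 0.81, standard error 0.44). The pheromone MAP kinase gene *spk1* stood at 0.44, -0.56 and -1.50 against 0.25, 0.28 and 0.44 (0.86, standard error 0.47), and the groups overlapped. The adaptor gene *ste4* differed by 0.67. With LatA the differences of *ste11*, *spk1* and *ste4* were -0.40, -0.76 and -0.40, and none of these changes between the treatments passed (adjusted p from 0.166 to 0.198 in limma).

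The strain difference was also measured on the 6 LatA arrays, none of which entered the DMSO comparison. There 154 probe sets passed (3.16%), 49 higher (1%) and 105 lower (2.15%) in *set3Δ*, with a median standard error of 0.0646 against 0.0934 with DMSO, and the median absolute difference was 0.12 against 0.14. Of the 6 genes called with DMSO 5 were called again in the same direction, and *urm1* was not. With LatA the arrays did not overlap for 1992 probe sets (40.8%). They did not overlap in the same direction in both treatments for 595 probe sets, 41.3% of those with DMSO and 29.9% of those with LatA, and in opposite directions for 81. At a fold change above 1.5 as well, 24 probe sets remained in both, 21.4% of the 112 with DMSO and 14% of the 171 with LatA (3.5% of all). The 14 lower ones include the called genes other than *urm1* and also SPAC750.01, SPAC186.04c, SPAC186.06, *mag2*, *efm6*, *mug14* and the predicted dehydrogenase gene SPAC5H10.10 (-0.61 with DMSO). The 10 higher ones include SPAC4H3.08, *cnp3*, *ssd2*, *rds1*, *mug73* (1.02), *abp2*, which encodes an origin-binding protein (0.88), SPAC27D7.09c (0.96), *hpz2* (0.73) and *cao2* (0.70). Over all 4880 probe sets, normalized together on the same 12 arrays, the strain differences with DMSO and with LatA had a Pearson r of 0.426 and a Spearman rho of 0.312, and r was 0.293 without the called probe sets.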

How the data were processed

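Total RNA from 12 cultures was hybridized to Affymetrix Yeast Genome 2.0 arrays. The authors processed the arrays with RMA in GeneSpring, and the deposited log2 intensities are centred on the median of each probe set over 12 arrays (largest absolute median 7.0e-07). The sources used here do not give the annotation version. With centred values no probe set could be judged dim or left out, and the number of arrays limits the precision. Columns of all 12 samples were used.

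Of 4880 probe sets, 2865 were named from the platform annotation and 1052 only from target descriptions among the study's supplementary data, of which 1999 lines were read. A further 19 match several genes and 944 have no name here. Gene order came from a RefSeq annotation, and no coordinates or sequences are given.

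Groups were compared with limma 3.58.1 in R 4.3.3 (statmod 1.5.0), fitted on the 6 arrays of each treatment and, for the change of the strain difference with LatA, on all 12. Benjamini-Hochberg adjustment ran over all probe sets. A probe set was called at an adjusted p below 0.05 and a fold change above 1.5, and "passed" in the text means this. Lists are described by counts and medians. The gene lists and genes to describe were chosen with earlier results of these data known. The CESR, cytokinesis and stress lists are those of the study. Named were all called probe sets, the 8 largest non-overlapping differences in each direction at an unadjusted p below 0.05 among probe sets with 1 gene name, the Set3 complex, the marker genes, the neighbours of *set3*, and up to 3 (4 for the study's lists) largest members of each list. Other genes named, such as *mag2*, SPAC186.04c, SPAC186.06, *cmt2*, *tlh2*, *mam1*, *mam4*, *pck2*, *fip1*, *msi2* and *cca1*, were chosen after their values were seen. Simulated data used the spread of these arrays. There 88% of log2 changes of 0.8, 94% of 1.2 and 98% of 2 were recovered (50 probe sets each), with 3 unchanged probe sets called. These shares do not carry over to the arrays, because the adjusted p depends on how many probe sets change. On the arrays 235 probe sets differed by more than 1.5-fold and 6 were called. A gene that was not called, such as SPAC4H3.08 (2.06), may therefore still differ by more than 0.8. The alternatives tried were 1 fit of 12 arrays, a replicate block, unmoderated variances, robust moderation, array weights, a shift of each array to a median of 0, dropping probe sets that may match several genes, other limits, and leaving out each array. Plots were made in Python 3.11.15 (matplotlib 3.10.9).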

Additional observations from a re-analysis of the deposited data

Results flagged for a closer look

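For 3 probe sets the strain difference with LatA was unlike that with DMSO by the limma test of that change over 12 arrays (0.0615% of all; 986 were below 0.05 before adjustment). A probe set with no gene name here lay higher in *set3Δ* with DMSO (1.23; -0.46, -0.05 and -0.18 in wild type against 0.76, 1.16 and 1.06) and lower with LatA (-0.64), a change of -1.87 (adjusted p = 0.0308). SPAC922.03, a predicted deaminase gene, differed by 0.11 with DMSO and -1.04 with LatA, a change of -1.15 (adjusted p = 0.0308), and all 3 wild-type LatA arrays stood from 0.92 to 1.07. The predicted esterase gene SPAPB1A11.02 differed by 0.07 with DMSO, while the *set3Δ* LatA arrays stood at 2.12, 1.49 and 2.16 against -0.18 to 0.08 in wild type, a change of 1.87 (adjusted p = 0.0389). The count of 3 was 0 or 1 when any of 9 of the 12 arrays was left out, and rose to 5 without wild-type DMSO replicate 3, 29 without *set3Δ* LatA replicate 3 and 479 without wild-type DMSO replicate 1. The cause was not tested. Single arrays were not screened for outliers, since groups held 3 arrays.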

How the results depend on the processing

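The count of 6 with DMSO stayed at 6 with robust moderation and with the replicate number as a block (2 higher, 4 lower), and was 5 with arrays centred on their median and 4 without probe sets that can match several genes. It was 93 in 1 fit of 12 arrays (39 higher, 54 lower), 134 with array weights (62 higher, 72 lower), 3 with each probe set's own variance, 12 at an adjusted p below 0.1 (2 higher, 10 lower), and from 3 (without wild-type replicate 2) to 6 when one array was left out. The array weights had not converged and gave wild-type replicate 2 a weight of 5.938 against 0.5035 to 0.9292 for the others. Whether equal replicate numbers paired the samples is not known. For equal numbers, deviations from the group means correlated at 0.443, 0.562 and -0.497 across probe sets, and for unequal numbers from -0.696 to 0.547. With 3 arrays in a group the deviations sum to 0, so these values cannot decide it. Under the replicate block SPBC23G7.10c and *urm1* lost their calls (adjusted p = 0.14 and 0.204 from limma) and *cnp3* gained one (adjusted p = 0.0206). *set3*, *gdt1* and *mfm2* were called under all 17 alternatives and *mat3-Mc* under 14 of the 16 that kept it. It was lost with its own variance (adjusted p = 0.0613) and without wild-type replicate 2 (0.0519). The LatA count of 154 was 74 with own variances, 623 and 66 at fold limits of 1.2 and 2, 87 at an adjusted p below 0.01, and from 93 (without *set3Δ* LatA replicate 2; 94 without wild-type LatA replicate 2) to 174 with one array left out. The count of 3 changes between treatments was 1 with own variances, 1151 with array weights, 9 with arrays centred on their median, 27 and 0 at adjusted p limits of 0.1 and 0.01, and from 0 to 479 with one array left out. Small differences changed sign: *wtf13* ranged from -1.20 to 0.05 with one array left out (0.05 without wild-type replicate 3) and *rna1* from -0.08 to 0.02 (0.02 without *set3Δ* replicate 3). Of 1231 log2 differences of named genes under an alternative, these 2 changed sign, 1170 kept both their sign and their side of the test's threshold, 40 came to pass it and 19 no longer did. Of 319 list medians, 7 moved by more than the spread between replicates. The cause of these changes was not tested. Centred values give no signal over background, so dim probe sets were not told apart from bright ones.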

Other observations

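Several gene groups showed little difference between *set3Δ* and wild type with DMSO. The cytosolic ribosomal protein genes had a median difference of -0.01 over 127 probe sets, all between -0.41 and 0.04, and none passed in limma (1 at an unadjusted p below 0.05). The lowest was *rpl1603*, with 0.46, 0.49 and 0.71 in wild type and 0.31, 0.13 and -0.01 in *set3Δ*. The core histone genes lay within -0.14 and 0.01 (13 probe sets, median -0.04) and none passed. With LatA all 13 were negative with a median of -0.31, and 4 passed as lower (2.15% of all probe sets did). Every *set3Δ* LatA array lay below every wild-type LatA array for all 13 (100%, whereas 40.8% of all probe sets did not overlap in either direction). The *wtf* meiotic driver elements had a median of -0.19, with 10 of 12 probe sets negative and none passing. *wtf13* varied most between replicates of one strain, with -0.13, 1.25 and 2.38 in wild type and 0.20, 1.69 and -0.04 in *set3Δ*.

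Other groups held a few larger, uncalled differences in both directions. Of 14 S-phase genes regulated by MBF 7 were positive and 7 negative, with *rep2*, which encodes an activator subunit of MBF, at -0.62 (0.30, 0.74 and 0.64 against -0.24, 0.23 and -0.16, no overlap, adjusted p = 0.162 from limma), *res2* at 0.77 and the repressor gene *yox1* at -0.39. Of 15 genes of hexose transport and gluconeogenesis, none passed. The fructose bisphosphatase gene *fbp1* (1.04) and the glucosidase gene *agl1* (0.86) lay higher, and the transporter genes *ght1* (-0.97), *ght5* (-0.64) and *ght3* (-0.48) lower. The methyltransferase gene *set7* stood at 1.19, 1.34 and 1.53 in wild type and at 0.60, 0.62 and 0.07 in *set3Δ*, without overlap (-0.92, standard error 0.18, adjusted p = 0.136 from limma). The acid phosphatase gene *pho4* had the largest difference among 5 phosphate genes, at -0.46, with overlapping arrays.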
